A study of Mus musculus with 23 samples.

Results

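The 10 genes described here, Dusp4, Dusp5, Dusp6, Spry1, Spry2, Spry4, Spred1, Etv4, Etv5 and Fosl1, are transcriptional outputs and brakes of the Ras-MAPK pathway. They were chosen by gene symbol from 18193 genes with a symbol on the array. They are covered by 25 of 45037 probe sets, and the probe set with the highest mean stands for its gene. All 10 passed the filter on low values and were among the 15266 genes tested.

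Ras, once loaded with GTP, starts a kinase cascade through Raf and MEK to ERK, and ERK moves to the nucleus and switches on genes through Ets and AP-1 factors. Some of these genes encode inhibitors of the same cascade, so that a persistent signal raises its own brakes: the dual-specificity phosphatases remove phosphate from ERK, and Sprouty and Spred proteins act on the pathway around Ras and Raf. In fibroblasts an oncogenic Ras protein can lead to senescence, a lasting arrest in which the tumour-suppressor transcription factor p53 takes part. The levels of these genes are widely read as a measure of ERK output, and the comparison asks whether that output differs with the state of p53 when Ras itself is kept constantly active.

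RNA of mouse embryonic fibroblasts was measured on 23 Affymetrix oligonucleotide arrays, 1 per sample, and every sample, controls included, carried H-Ras V12 from a retrovirus. There was thus no array without oncogenic Ras, and the levels below compare p53 states within Ras-expressing cells. The Null group (n = 6) joined 3 arrays of LSL-WT knock-in cells with Adeno-Empty virus, in which the stop cassette (LSL) before the p53 allele was left in place, and 3 arrays of p53 null cells with Adeno-Cre. The QM group (n = 3), the 25,26 group (n = 5) and the 53,54 group (n = 3) were LSL knock-in cells with Adeno-Cre, whose p53 had both transactivation domains disrupted, only the first, and only the second. The WT group (n = 6) joined 3 arrays of LSL-WT cells with Adeno-Cre and 3 arrays of p53 WT cells with Adeno-Cre. Cells were 129/Sv or a 129/Sv and C57BL6 mix, with 4 and 2 arrays in Null, 2 and 1 in QM, 4 and 1 in 25,26, 1 and 2 in 53,54, and 3 and 3 in WT. Each title ends in a number from 1 to 5 whose meaning the labels do not give, and arrays are named here by subgroup and that number (LSL-WT Empty 1, Null Cre 2).

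Array medians ran from 59.9 to 64.22 in intensity. For WT Cre 3 the genotype label names LSL-WT, against WT in the title, and the genotype label of Null Cre 4 adds the word knock-in. The groups were described by 6 p53 target genes, a list chosen with earlier results of these data known and so not an independent check. Of these, 6 were lower in Null than in WT, 6 in QM, 5 in 25,26 and 0 in 53,54. The share of all genes that passed in limma was 22.7%, 13.9%, 7.70% and 0.367% in the same order. Against Null, 6 were higher in 25,26, 6 in 53,54 and 1 in QM, Sulf2 (1.64, adjusted p 0.00914 in limma). Of all genes, 4.30%, 19.6% and 0.0131% passed in these comparisons. The mean log2 level of 10 fibroblast markers was 12.07 to 13.67 over all arrays, that of 6 macrophage markers 5.68 to 6.39, that of 4 endothelial markers 5.20 to 6.14 and that of 6 epithelial markers 7.08 to 8.90. Macrophage Ptprc and Itgam and endothelial Pecam1 lay below the filter. The mean of the epithelial list was 7.08 to 7.80 in Null against 8.35 to 8.90 in WT. Of its genes, Krt18 (-0.90), Krt19 (-1.28) and Dsp (-3.10) were lower in Null. Epcam (-0.05), Krt8 (-0.01) and Cdh1 (-0.90) did not pass, with adjusted p of 0.732, 0.984 and 0.186 in limma. Among fibroblast markers, Col3a1, Pdgfra, Pdgfrb, Dcn and Lum were higher in Null, while Col1a1, Col1a2, Thy1, Vim and Fn1 did not pass. The macrophage marker Cd68 was lower, while Csf1r, Cd14 and Lyz2 did not pass. In bulk RNA fewer cells of a type and less RNA per cell cannot be told apart, and the part of these marker differences in the results below was not tested.

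Promoters of 6 of the 10 genes were in the RefSeq promoter table (build GRCm38.p6), as windows from 250 bases before to 50 bases after a start site, 7 windows in all. They were searched on both strands for 4 motifs: the CArG box bound by serum response factor, the Ets-type sequence AGGAAG, the AP-1 site TGANTCA and the p53 half-site. AGGAAG is a longer form of the Ets core GGAA, and cores with other neighbouring letters were not searched or marked. The windows that held a match are printed here, each 5′ to 3′ on the strand of its gene, because they carry the letters by which ERK-responsive factors are known to read DNA. Capitals mark the CArG boxes in Dusp5 (chr19:53528895-53529194, plus strand) and AGGAAG, read on either strand, in Dusp6 (chr10:99262981-99263280, plus strand) and Etv5 (chr16:22438319-22438618, minus strand).
Dusp5: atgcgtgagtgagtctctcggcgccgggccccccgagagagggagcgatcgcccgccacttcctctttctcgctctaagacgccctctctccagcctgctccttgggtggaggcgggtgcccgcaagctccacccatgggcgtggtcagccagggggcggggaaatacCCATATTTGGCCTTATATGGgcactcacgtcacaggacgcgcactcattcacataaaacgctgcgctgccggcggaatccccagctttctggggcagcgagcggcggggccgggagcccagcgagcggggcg
Dusp6: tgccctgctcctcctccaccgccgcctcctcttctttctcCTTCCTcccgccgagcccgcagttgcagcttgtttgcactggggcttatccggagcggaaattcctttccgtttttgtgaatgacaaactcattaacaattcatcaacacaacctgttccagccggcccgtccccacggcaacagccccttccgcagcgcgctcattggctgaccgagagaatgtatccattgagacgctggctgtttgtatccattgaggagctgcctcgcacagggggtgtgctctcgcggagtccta
Etv5: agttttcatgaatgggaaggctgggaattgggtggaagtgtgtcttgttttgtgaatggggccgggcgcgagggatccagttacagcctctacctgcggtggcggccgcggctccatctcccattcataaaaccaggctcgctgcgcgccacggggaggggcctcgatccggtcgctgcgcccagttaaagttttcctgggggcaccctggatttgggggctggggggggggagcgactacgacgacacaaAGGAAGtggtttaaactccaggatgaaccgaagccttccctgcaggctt
The Dusp5 window held 2 CArG boxes end to end, from -82 to -73 and from -72 to -63 relative to the start site. It also held 1 AGGAAG on the opposite strand from -192 to -187. A CArG box occurred in 1.63% of the 32851 promoter windows in the table. AGGAAG occurred in 35.35% of all windows, the AP-1 site in 7.81% and the p53 half-site in 8.36%, and no window of these genes held either of the last 2. The windows of Spry1, Spry2, Spred1 and the other Etv5 start held none of the 4 motifs. A match is a description of letters in the window and not evidence that a factor binds there.

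The means of the 5 groups spanned at least 0.20 on the log2 scale, for Dusp6, and at most 0.88, for Etv5. When the groups were ordered by their mean level, neighbours in that order overlapped in their arrays for all 10 genes, while groups further apart could be separate, as 53,54 and Null were for Dusp5. The plot of levels by group shows the arrays behind these means.

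**Figure D1:**
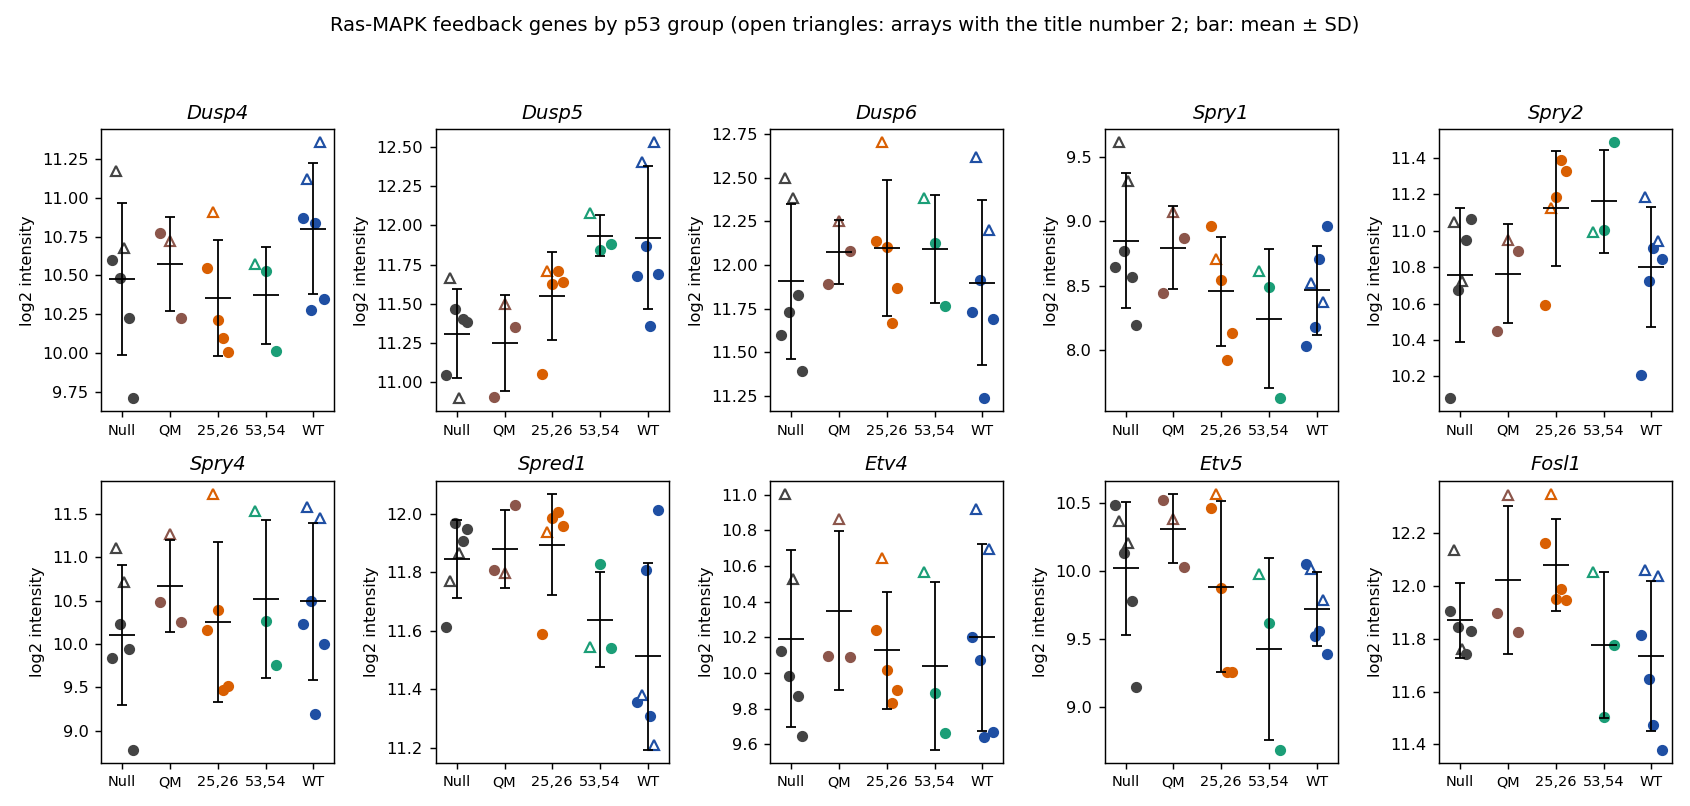
Log2 intensity of each gene in every array, with Null at the left, then QM, 25,26, 53,54 and WT at the right. Each point is 1 array, open triangles are the arrays with the title number 2, and the bar is the group mean ± SD. The Dusp5 arrays of 53,54 lie above those of Null, and the triangles sit at or near the top for Spry4, Dusp6 and Etv4.

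Dusp5, a nuclear phosphatase specific for ERK, was the only one of the 10 that passed in any comparison of a group with WT in the main fit. The main fit had no block, covariate or weights. Its log2 level in the Null group was 11.04, 11.67 and 11.47 in the LSL-WT Empty arrays and 10.90, 11.41 and 11.38 in the Null Cre arrays. QM arrays had 10.91, 11.50 and 11.35, and 25,26 arrays had 11.05, 11.71, 11.63, 11.71 and 11.64. The 53,54 arrays had 12.08, 11.84 and 11.88, and WT arrays had 11.68, 12.40 and 11.87 with LSL-WT Cre and 11.36, 12.53 and 11.69 with WT Cre. The 53,54 arrays and 3 of the 6 WT arrays lay above all Null, QM and 25,26 arrays. The other WT arrays, WT Cre 1, LSL-WT Cre 1 and WT Cre 3, lay within the range of 25,26, and Null and WT overlapped from 11.36 to 11.67.

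Dusp5 averaged 11.31 ± 0.29 in Null and 11.92 ± 0.46 in WT (log2 level, SD, n = 6 each). The Null minus WT difference was -0.61 ± 0.18 (SE), a fold of 0.655, with a 95% interval from -0.99 to -0.23 and an adjusted p of 0.0172 in limma. In this comparison 22.7% of all genes passed, 11.8% higher and 10.9% lower in Null. The call did not hold without the array WT Cre 2 (-0.49, adjusted p 0.0514) without the 7 arrays of title number 2 (-0.32, adjusted p 0.194), or when only the compared arrays were fitted (adjusted p 0.05002). Without the arrays with an unlike genotype label it held, at -0.66 (adjusted p 0.0161) without WT Cre 3 and -0.63 (adjusted p 0.0259) without Null Cre 4.

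QM and WT differed in Dusp5 by -0.67 ± 0.22 (adjusted p 0.0484 in limma), with QM at 11.25 ± 0.31 (SD, n = 3) and 13.9% of all genes passing. This call sat at the threshold. It was lost when any QM array was left out, with adjusted p from 0.0582 to 0.278, when LSL-WT Cre 2, LSL-WT Cre 3 or WT Cre 2 was left out (0.0597 to 0.10), without number 2 (0.118), and under the further settings given at the end. In 25,26 the mean was 11.55 ± 0.28 (n = 5), and the difference from WT, -0.37 ± 0.19, did not pass (adjusted p 0.280). In 53,54 the mean was 11.93 ± 0.13 (n = 3), and the difference from WT was 0.01, with an interval from -0.45 to 0.48. Both the QM and the Null comparison use the same 6 WT arrays.

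Dusp4, another nuclear phosphatase of the family, was lower in all groups than in WT by value, without passing in any. Null arrays ran from 9.71 through a median of 10.54 to 11.18, against 10.28, 10.85 and 11.36 in WT, and the groups overlapped over most of their range. QM arrays had 10.78, 10.72 and 10.23. The 25,26 arrays had 10.55, 10.91, 10.21, 10.10 and 10.01, and the 53,54 arrays 10.58, 10.53 and 10.01. The differences from WT were -0.32 ± 0.22 in Null, -0.23 ± 0.27 in QM, -0.45 ± 0.23 in 25,26 and -0.43 ± 0.27 in 53,54 (adjusted p 0.294 to 0.813 in limma).

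Dusp6, the cytoplasmic phosphatase that binds and inactivates ERK, had nearly equal means in Null and WT. Null arrays had a lowest, median and highest level of 11.39, 11.78 and 12.50, and WT arrays of 11.24, 11.82 and 12.62. The Null minus WT difference was 0.01, with an interval from -0.45 to 0.46, so that a change of up to about that size in either direction lay within the error. QM arrays had 11.89, 12.25 and 12.08, 25,26 arrays 12.14, 12.70, 12.11, 11.67 and 11.87, and 53,54 arrays 12.38, 12.13 and 11.77. All lay within the range of the WT arrays except 25,26 2, which was slightly above it.

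Spry4, an inhibitor of receptor-driven Ras activation, varied more between arrays of a group than any other of the 10. Its lowest, median and highest level was 8.78, 10.08 and 11.10 in Null and 9.20, 10.36 and 11.58 in WT. QM arrays had 10.48, 11.27 and 10.26, 25,26 arrays 10.16, 11.73, 10.39, 9.47 and 9.51, and 53,54 arrays 11.53, 10.27 and 9.76. With an SD of 0.81 in Null and 0.91 in WT, the Null minus WT difference of -0.39 had an interval from -1.34 to 0.55. A change of that size could not be seen at this spread.

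Spry1 and Spry2, related inhibitors, did not pass in any comparison with WT in the main fit. Spry1 passed in Null against WT with the title number as a block (0.50, adjusted p 0.0314 in limma) or Xist as a covariate (0.63, adjusted p 0.0410). Spry2 passed in 25,26 against WT with array weights (0.52, adjusted p 0.0332). Spry1 ran from 8.20 through 8.71 to 9.61 in Null and from 8.03 through 8.45 to 8.96 in WT, a difference of 0.39 ± 0.24 (adjusted p 0.284 in limma). Spry1 in QM had 8.44, 9.07 and 8.87, in 25,26 8.96, 8.71, 8.55, 7.92 and 8.13, and in 53,54 8.61, 8.49 and 7.62. The 53,54 group held the lowest Spry1 array of all, and all groups overlapped with WT. Spry2 ran from 10.08 through 10.84 to 11.07 in Null and from 10.21 through 10.87 to 11.18 in WT, a difference of -0.04 ± 0.18. Spry2 in QM had 10.45, 10.95 and 10.89, in 25,26 10.59, 11.12, 11.18, 11.39 and 11.33, and in 53,54 10.99, 11.01 and 11.49. The means of 25,26 and 53,54 were 0.32 and 0.36 above WT, with adjusted p of 0.365 and 0.803.

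Spred1, which works with neurofibromin to switch Ras off, was higher in Null than in WT by value, the other way from Dusp5. Its Null arrays lay close together, at 11.61, 11.77 and 11.97 with LSL-WT Empty and 11.87, 11.91 and 11.95 with Null Cre. WT arrays had 11.36, 11.38 and 11.81 with LSL-WT Cre and 11.31, 11.21 and 12.01 with WT Cre. In both WT subgroups the number 3 array was high and the other 2 were below every Null array. The difference of 0.33 ± 0.12 (interval 0.08 to 0.58) had an adjusted p of 0.0514 in limma and so did not pass. Without WT Cre 3, the array with an unlike genotype label, it was 0.43 and passed (adjusted p 0.00509), and without LSL-WT Cre 3 (0.39) or LSL-WT Empty 1 (0.38) it also passed, with adjusted p of 0.0237 and 0.0337. Leaving out any other Null or WT array gave adjusted p from 0.0607 to 0.134. It passed with the strain background as a covariate (0.0331) or the title number as a block (0.00993). It did not pass with Xist as a covariate (0.127), with array weights (0.0959), with the compared arrays alone (0.115) or without number 2 (0.24, adjusted p 0.366).

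Spred1 in the mutants was 11.81, 11.80 and 12.03 in QM, 11.59, 11.94, 11.99, 12.01 and 11.96 in 25,26, and 11.55, 11.83 and 11.54 in 53,54. By mean, QM (11.88) and 25,26 (11.90) lay beside Null (11.85), and 53,54 lay between Null and WT. The differences from WT were 0.37 ± 0.15 in QM, 0.38 ± 0.13 in 25,26 and 0.13 ± 0.15 in 53,54, with adjusted p of 0.113, 0.0698 and 0.930 in limma.

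Etv4 and Etv5 encode Ets factors of the PEA3 group, which are induced by ERK and carry its signal on to further genes. Etv4 ran from 9.65 through 10.05 to 11.01 in Null and from 9.64 through 10.14 to 10.92 in WT, and the difference was -0.01 (interval -0.53 to 0.51). The other Etv4 groups had 10.10, 10.87 and 10.09 in QM, 10.24, 10.64, 10.02, 9.83 and 9.91 in 25,26, and 10.56, 9.89 and 9.66 in 53,54. In each of the 5 groups the highest Etv4 array was a number 2 array.

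Etv5 ran from 9.15 through 10.17 to 10.49 in Null and from 9.39 through 9.68 to 10.06 in WT, with a difference of 0.30 ± 0.26 (adjusted p 0.49 in limma). QM arrays had 10.52, 10.38 and 10.03, 25,26 arrays 10.46, 10.57, 9.87, 9.26 and 9.26, and 53,54 arrays 9.98, 9.62 and 8.69. QM was the highest group by mean and 53,54 the lowest, and the number 4 and number 5 arrays were the lowest of the groups that had them. QM minus WT was 0.59 ± 0.32 (interval -0.07 to 1.25).

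Fosl1 encodes Fra-1, an AP-1 subunit whose gene and protein are both raised by ERK. Null arrays ran from 11.74 through 11.84 to 12.13, against 11.38, 11.73 and 12.06 in WT, and the difference was 0.13 ± 0.13. QM arrays had 11.90, 12.34 and 11.82, 25,26 arrays 12.16, 12.35, 11.95, 11.99 and 11.95, and 53,54 arrays 12.05, 11.50 and 11.78. The 25,26 arrays sat high, at 0.34 ± 0.13 above WT (unadjusted p 0.0185, adjusted p 0.136 in limma), and overlapped the WT arrays.

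In all, 1 of 10 genes passed in Null against WT, 1 of 10 in QM against WT, 0 of 10 in 25,26 against WT and 0 of 10 in 53,54 against WT. The share of all genes that passed was 22.7%, 13.9%, 7.70% and 0.367% in the same order. In Null against WT, 2 of the 10 had an unadjusted p below 0.05, in QM 2, in 25,26 2 and in 53,54 0. The share of all genes at this unadjusted threshold is not given here, so these counts cannot be set against it. The median difference of the 10 genes in Null against WT was -2e-04, beside -0.0015 over all genes, and the median size of a difference, without its sign, was 0.31, beside 0.16 over all genes. Between LSL-WT Cre and LSL-WT Empty that size was 0.21, beside 0.17 over all genes. Between Null Cre and WT Cre it was 0.15, below the 0.19 over all genes. The plot of differences from WT shows their intervals.

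**Figure D2:**
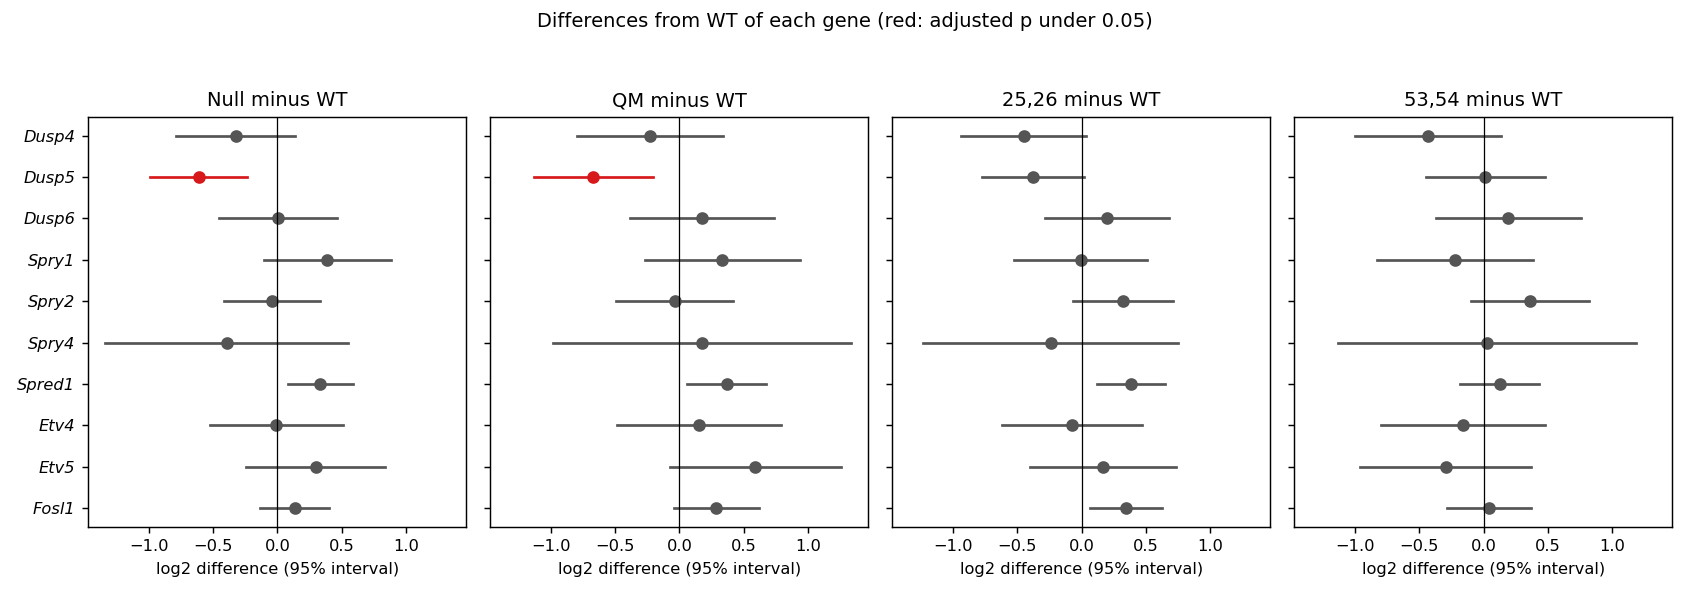
Log2 difference of each gene from WT, for Null, QM, 25,26 and 53,54 from left to right, with points as estimates and lines as 95% intervals. Red marks an adjusted p under 0.05 in limma. Dusp5 is red in Null (-0.61) and in QM (-0.67), and the intervals of Spry4 are the widest.

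With the title number as a block, 4 of 10 genes passed in 25,26 against WT, where 12.0% of all genes did. This comparison met the criterion for pairing by title number. The blocked differences were 0.59 ± 0.10 for Etv5 (adjusted p 0.00118), 0.39 ± 0.10 for Fosl1 (0.0140), 0.34 ± 0.09 for Spred1 (0.0201) and 0.39 ± 0.12 for Dusp6 (0.0448), all higher in 25,26. Without the block the same 4 differences were 0.16, 0.34, 0.38 and 0.20. The array 25,26 5 is the only one with its number and adds nothing to a blocked difference. In comparisons not taken as paired, the block called 4 of 10 genes in Null against WT, where 33.8% of all genes passed. It called 4 in QM against WT (26.4%) and 3 in Null Cre against WT Cre (28.1%). Etv5 was then 0.51 higher in Null than in WT (adjusted p 0.000236) and 0.53 higher in Null Cre than in WT Cre (adjusted p 0.000871), against 0.30 and 0.13 without the block.

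Against Null, none of the 10 passed in QM, 25,26 or 53,54, while 0.0131%, 4.30% and 19.6% of all genes did. The nearest was Dusp5 in 53,54, whose 3 arrays at 11.84 to 12.08 lay above all 6 Null arrays at 10.90 to 11.67, with a difference of 0.62 ± 0.22 and an adjusted p of 0.0530 in limma. Without LSL-WT Empty 2 it was 0.69 and passed (adjusted p 0.0365). This comparison also met the pairing criterion. With the number as a block, Dusp5 was 0.54 ± 0.16 higher in 53,54 (adjusted p 0.0164) and Etv5 0.38 ± 0.11 lower (-0.38, adjusted p 0.0103), where 31.8% of all genes passed. The 25,26 minus Null differences of the 10 genes ran from -0.40 to 0.37, and those of QM from -0.06 to 0.57, so neither group was shown to differ from Null in any of them.

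LSL-WT cells with Cre and with Empty virus are the same knock-in cells with the stop cassette removed and in place, and their arrays are numbered 1 to 3 in both. Dusp5 was 11.68, 12.40 and 11.87 with Cre, against 11.04, 11.67 and 11.47 with Empty virus. Cre was higher in 3 of 3 pairs, by 0.40 to 0.74, and the highest Empty array lay just below the lowest Cre array. Spry1 was 8.03, 8.52 and 8.18 with Cre, against 8.64, 9.61 and 8.77 with Empty virus, lower in 3 of 3 pairs and without overlap. Etv5 was 10.06, 10.01 and 9.52 with Cre, against 10.49, 10.37 and 10.13 with Empty virus, also lower in 3 of 3 pairs and without overlap. The shares of all genes that moved 1 way in 3 of 3 pairs, or did not overlap, are not given here. The pair counts here and below thus cannot be set against them.

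Without a block none of the 10 passed between LSL-WT Cre and LSL-WT Empty, where 11.7% of all genes did, and the differences of Dusp5, Spry1 and Etv5 were 0.59 ± 0.27, -0.77 ± 0.33 and -0.46 ± 0.35. Same-numbered arrays of these subgroups deviated together, and with the number as a block the 3 genes passed, with SE of 0.17, 0.22 and 0.09 and adjusted p of 0.0152, 0.0178 and 0.00125, where 26.7% of all genes passed. Dusp6, Spry2 and Spry4 were higher with Cre in 3 of 3 pairs and Spred1 and Fosl1 lower in 3 of 3, none of which passed with the block. The pairs of Spry4 differed by 0.27 to 0.47, and those of Spred1 by -0.39 to -0.16. The number 2 pair of Spry1 differed most, at -1.10, against -0.61 and -0.59.

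**Figure D3:**
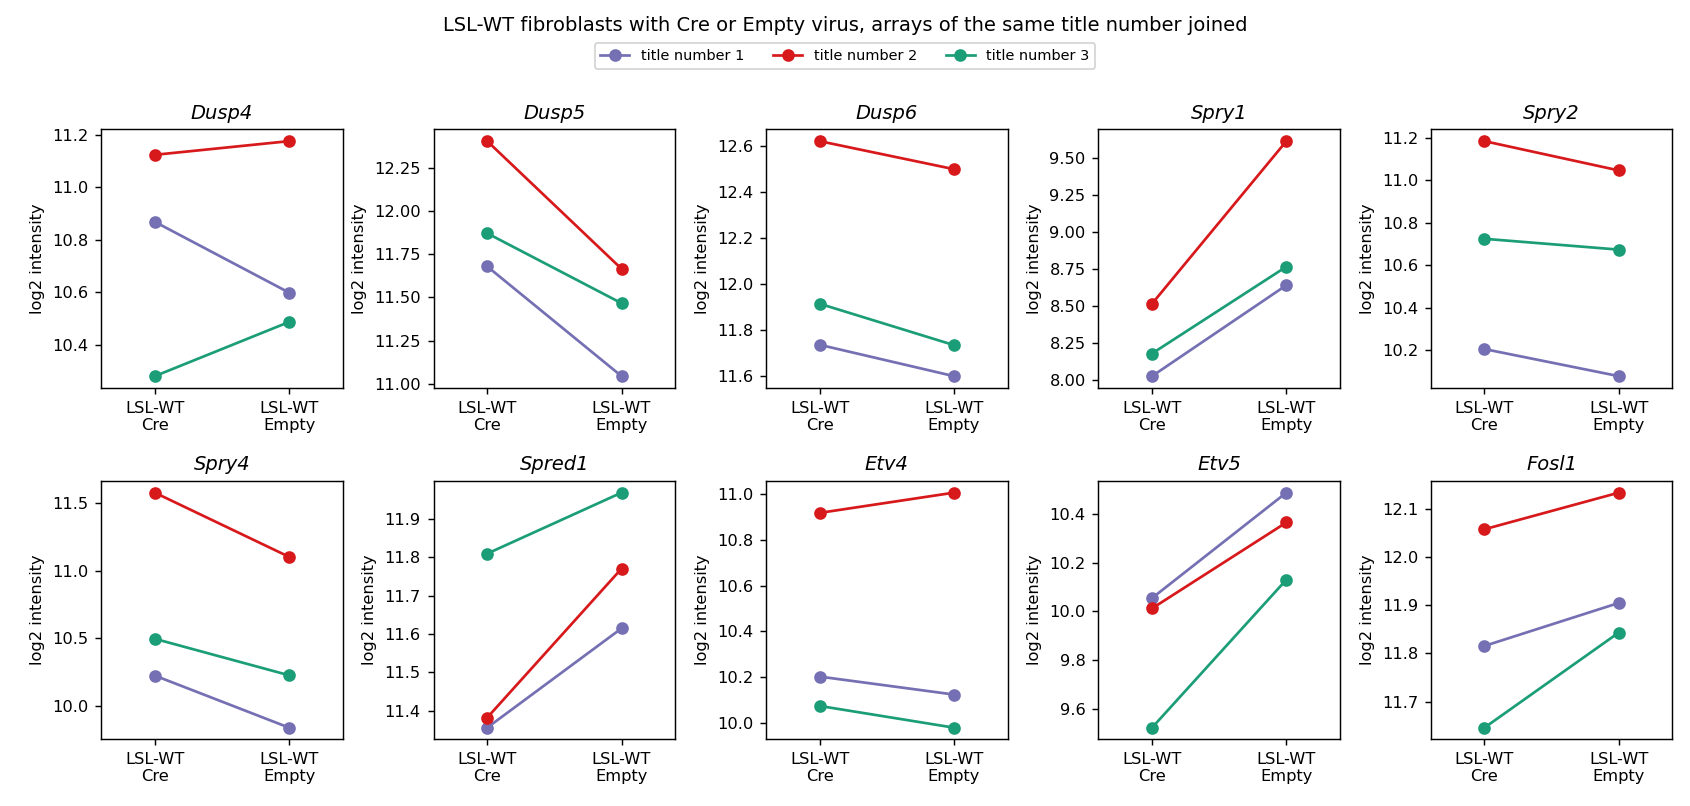
Log2 intensity of each gene in LSL-WT Cre (left) and LSL-WT Empty (right), with a line joining arrays of the same title number. Lines of Dusp5 run down from Cre to Empty and those of Spry1 and Etv5 run up, in 3 of 3 pairs each, while lines of Dusp4 and Etv4 run both ways.

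Null Cre and WT Cre, the other parts of the Null and WT groups, share no array with these, and are numbered 2 to 4 in Null Cre and 1 to 3 in WT Cre. None of the 10 passed between them, where 15.9% of all genes did. Dusp5 was 10.90, 11.41 and 11.38 in Null Cre, against 11.36, 12.53 and 11.69 in WT Cre, a difference of -0.63 ± 0.27 (adjusted p 0.123 in limma), close in size to the 0.59 of the knock-in cells. Etv5 was 10.21, 9.78 and 9.15 in Null Cre, against 9.56, 9.79 and 9.39 in WT Cre, a difference of 0.13 ± 0.35 (adjusted p 0.881 in limma). The groups overlapped, and at the shared numbers 2 and 3 the Null Cre array was the higher one. Spry1 had 9.31, 8.57 and 8.20 in Null Cre, against 8.71, 8.37 and 8.96 in WT Cre (0.01 ± 0.33). Whether the 2 parts differ in their p53 effect was tested as an interaction, which 0 of 10 genes and 0.00655% of all genes passed. For Dusp5 the difference between the parts was -0.04, with an interval from -0.82 to 0.75. Xist, which silenced X chromosomes express, was also unequal in these subgroups, at 5.72 to 6.81 in Null Cre against 11.47 to 11.86 in WT Cre, so that p53 and sex cannot be told apart there. These arrays are also part of the Null against WT comparison and of the interaction. With Xist as a covariate the Dusp5 difference of Null from WT was -0.58 (adjusted p 0.0441 in limma).

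Levels of most of the 10 genes differed more between title numbers than between p53 groups. Spry4 had 11.10 and 10.72 in the number 2 arrays of Null, 11.27 in QM, 11.73 in 25,26, 11.53 in 53,54, and 11.58 and 11.46 in WT. No other array exceeded 10.50, so that all 7 number 2 arrays lay above the other 16, whatever the p53 state. The same complete separation held for Dusp6, at 12.20 or more in number 2 arrays and 12.14 or less in the others, and for Etv4, at 10.53 or more and 10.24 or less. The share of all genes with such a separation is not given here, and the title number passed a limma F test for 50.4% of all genes.

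Within each of 7 subgroups, the number 2 array was the highest in 7 of 7 for Dusp6, Spry4 and Etv4, in 6 of 7 for Dusp4, Dusp5 and Fosl1, in 5 of 7 for Spry1, in 4 of 7 for Spry2 and Etv5, and in 0 of 7 for Spred1. How often this is so among all genes is not given here. The Spry4 number 2 arrays stood 0.60 to 1.48 above their subgroup means. In the 3 subgroups with a number 4 array, that array was the lowest for Dusp6, Spry1, Spry4 and Etv4, and its Spry4 level was 0.76 to 1.03 below the subgroup mean (deviations of -1.03 to -0.76). Spred1 had its highest array at number 3 in most subgroups, with deviations up to 0.50. Dusp5 ran low in number 1 arrays, at -0.50 to -0.31 from the subgroup mean.

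**Figure D4:**
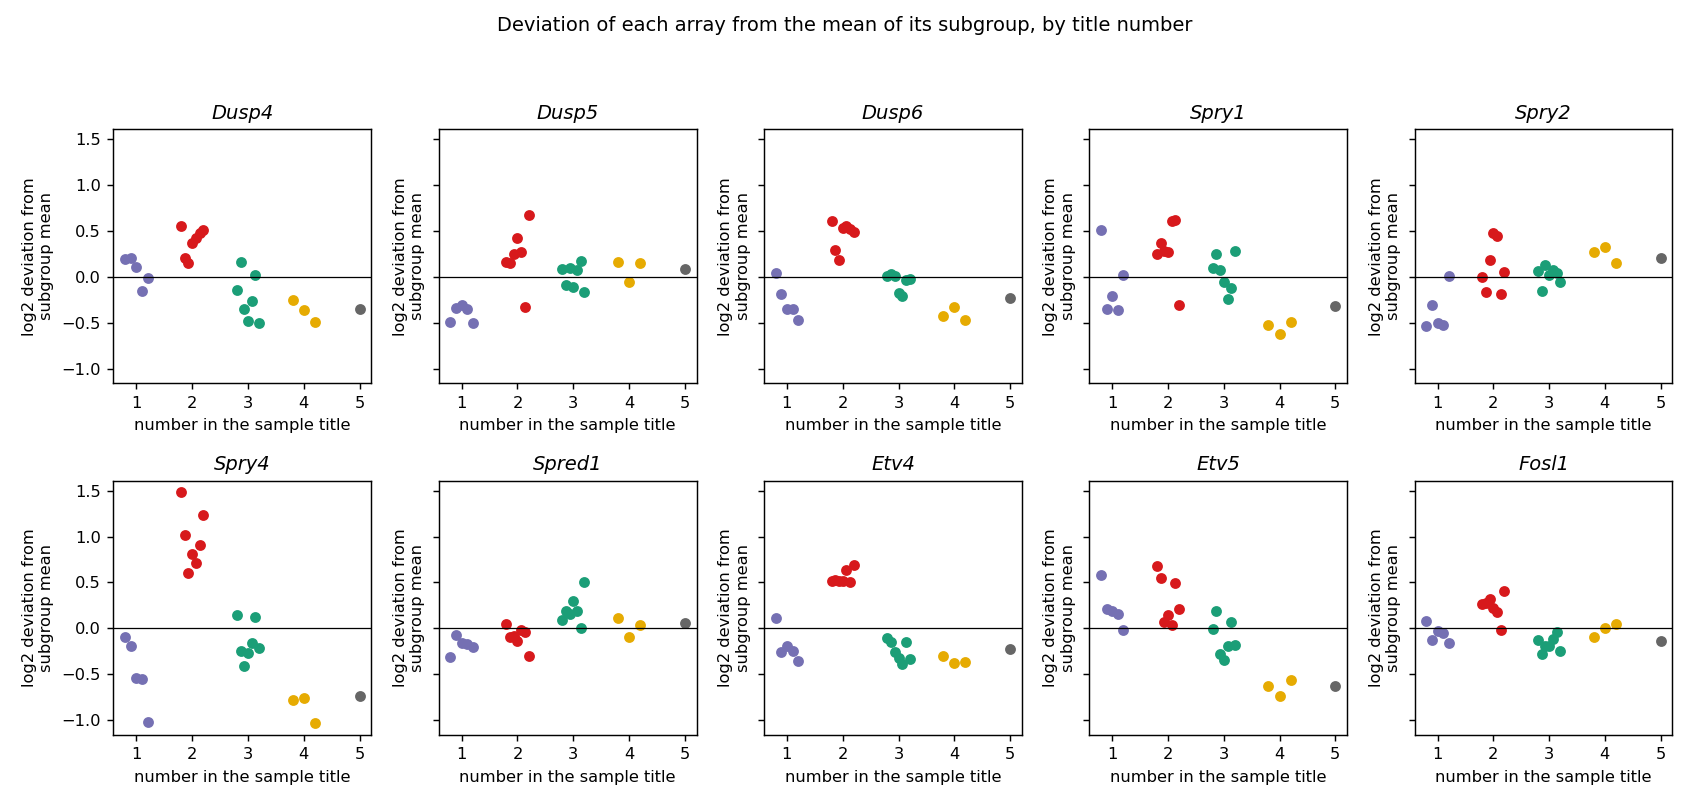
Deviation of each array from the mean of its subgroup on the log2 scale, against the number in the sample title, 1 point per array. Number 2 arrays of Spry4 sit 0.60 to 1.48 above their subgroup means and those of Etv4 0.51 to 0.69 above, while Spred1 shows no such rise.

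A limma F test of the title number beside the 7 subgroups, added after the levels had been seen, called all 10 genes, where 50.4% of all genes passed. The adjusted p ran from 1.49e-07 for Etv5 to 0.00888 for Spry1. The range of the number terms was larger than the range of the 5 group means for 9 of the 10, the exception being Dusp5 at 0.68 in both. For Spry4 the number terms spanned 2.06 and the group means 0.57, and for Etv4 they spanned 0.97 and 0.31. Without the number 2 arrays, 8 of 10 genes still passed the F test, and the share of all genes that did so is not given here. Proliferation markers moved with the number too: the mean of 11 such genes was lowest in the number 2 array of 6 of 7 subgroups, with deviations of -0.997 to -0.107, and its part in the levels of the 10 genes was not tested. Number and p53 group are not fully crossed, since number 5 is found only in 25,26.

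Within subgroups Spry4, Dusp6, Etv4 and Dusp4 varied together. As a description over 23 arrays, which share their title numbers, the correlation of deviations was 0.94 for Spry4 and Dusp6, 0.91 for Spry4 and Etv4, 0.91 for Dusp6 and Etv4, and 0.84 for Dusp4 and Etv4. Spred1 ran against several others, at -0.57 with Dusp4, -0.42 with Etv4 and -0.60 with Fosl1, and Spry2 and Etv5 ran against each other at -0.54. For levels, Spry4 and Dusp6 correlated at 0.89 over 23 arrays and at 0.76 over the 16 without number 2, and Spry4 and Fosl1 at 0.57 and 0.04. The gene with the most similar levels over the 23 arrays, among all others tested, was Ppp1r18 for Spry4 (Pearson 0.95), Zdhhc8 for Etv4 (0.95), Evl for Etv5 (0.95), Anpep for Dusp6 (0.94) and Nr2f6 for Dusp4 (0.91). It was Derl1 for Spry2 (0.89), Aars for Fosl1 (0.88), Man2a2 for Spred1 (0.87), Mef2a for Dusp5 (0.86) and Elovl5 for Spry1 (0.85). Of these, Mef2a (-0.75, adjusted p 0.0113) and Man2a2 (0.38, adjusted p 0.0461) passed in Null against WT in limma, and the title number passed for all but Man2a2.

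Other probe sets of the same genes mostly pointed the same way as the chosen ones. Spred1 had 8, Spry4 4, Etv5 3, Spry2, Etv4 and Fosl1 2 each, and the other 4 genes 1 each, so that the Dusp5 result rests on 1 probe set. Another bright Spred1 probe set gave 0.32 ± 0.12 in Null minus WT and followed the chosen one at a correlation of 0.92, while the remaining ones above the filter gave -0.02 to 0.20. The mean of all Spred1 probe sets differed by 0.16 (adjusted p 0.533). All 4 Spry4 probe sets were below 0, at -0.39 to -0.02, and all 3 of Etv5 above, at 0.17 to 0.30, none passing. An Spred1 probe set with a mean of 4.31 lay below the filter in every array and was not tested.

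**Figure D5:**
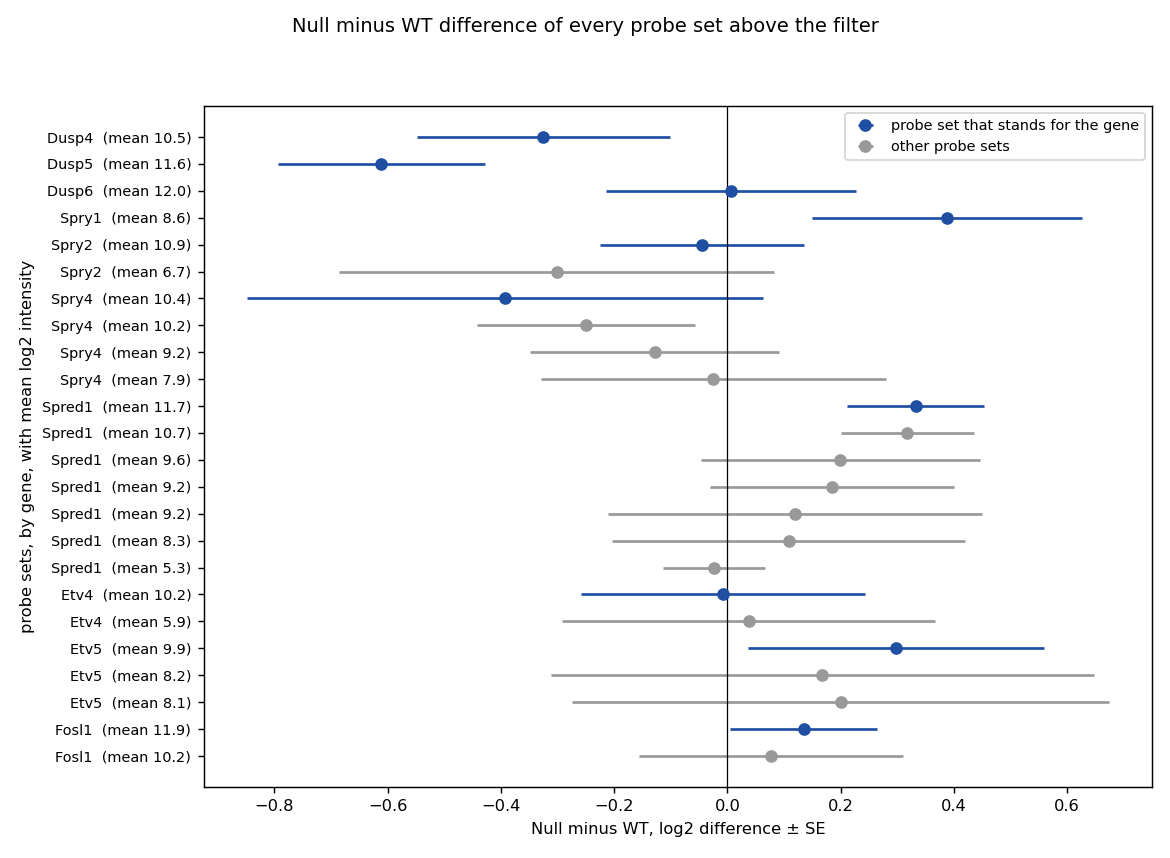
Null minus WT log2 difference ± SE of each of the 24 probe sets above the filter, grouped by gene, with the mean log2 intensity in brackets. Blue points are the probe sets that stand for their gene, at -0.61 for Dusp5 and 0.33 for Spred1, and grey points are the others.

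Other genes of the pathway were read from lists chosen with earlier results of these data known, and each count is set against the 22.7% of all genes that passed in Null against WT. Of 17 tested of 22 listed genes of the core cascade, from Ras to its kinases, 1 was higher and 0 lower: Rps6ka3, the ERK-activated kinase RSK2, at 9.98 ± 0.18 in Null and 9.49 ± 0.31 in WT (difference 0.49 ± 0.13, adjusted p 0.00634 in limma). Of 20 other MAPK phosphatases and pathway brakes, 1 was higher and 2 were lower in Null. Dusp3, a small phosphatase that acts on ERK and JNK, was 8.99 ± 0.29 in Null and 9.96 ± 0.24 in WT (difference -0.97, adjusted p 3.33e-05). It was also lower in QM (-0.80, adjusted p 0.00336) and 25,26 (-0.55, adjusted p 0.0247) than in WT, while 53,54 differed from WT by 0.14 ± 0.17 (adjusted p 0.933). Dusp14 differed by -0.67 and Spry3 by 0.50 from a low level, 5.41 in Null against 4.91 in WT.

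Of 14 AP-1 and immediate early factors, 1 was higher, Myc, a growth-promoting transcription factor, at 10.83 ± 0.16 in Null and 10.40 ± 0.26 in WT (adjusted p 0.00348 in limma). Of 9 tested Ets and SRF factors, 1 was lower, the ternary complex factor Elk3 (-0.17). Of 14 tested further ERK output genes 4 were lower in Null: the ephrin receptors Epha2 (-1.06) and Epha4 (-0.78), the cyclin Ccnd1 (-0.25) and, outside the rule for named genes and chosen after its value was seen, Plk3 (-0.53). The medians of the 5 lists in Null against WT were -0.12 for the cascade, -0.11 for the other brakes, 0.05 for AP-1 and immediate early factors, -0.10 for Ets and SRF factors and -0.18 for the other outputs, beside -0.0015 over all genes.

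Between LSL-WT Cre and LSL-WT Empty, Dusp3 was higher with Cre, at 9.90 ± 0.20 against 9.23 ± 0.12 (0.67, adjusted p 0.0172 in limma), and Myc lower, at 10.18 ± 0.11 against 10.94 ± 0.08 (-0.76, adjusted p 4.27e-05). In the other cells Dusp3 passed too, at 8.75 ± 0.18 in Null Cre against 10.03 ± 0.31 in WT Cre (-1.27, adjusted p 7.82e-05), but Myc did not, at 10.72 ± 0.13 in Null Cre against 10.63 ± 0.12 in WT Cre (0.10, adjusted p 0.624). Tested as an interaction, the Myc effects of the cells did not differ past the threshold (-0.67 ± 0.14, adjusted p 0.117). Dusp8 (0.35) and the cytokine gene Lif (1.69), both outside the rule and chosen after their values were seen, were higher with Cre. In Null Cre against WT Cre neither passed, with Dusp8 at -0.05 (adjusted p 0.836) and Lif at 9.19 in Null Cre against 8.94 in WT Cre (0.25, adjusted p 0.692). For Lif the interaction was 1.95 ± 0.45 and did not pass (adjusted p 0.141). In 53,54 against WT only Dusp2 (0.76, adjusted p 0.0409), also outside the rule, passed in these 5 lists. Proliferation markers, given for the state of the cells, were higher in Null than in WT for 10 of 11 tested genes with a median difference of 1.78, higher in QM for 9 and in 25,26 for 7, and for 0 in 53,54. The groups with a lower Dusp5 mean than WT were those with higher proliferation markers, and their part in its difference was not tested.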

How the data were processed

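RNA of H-Ras V12 mouse embryonic fibroblasts was measured on 23 arrays. The authors deposited an intensity per probe set on a linear scale, from 8.55 to 32042.1, made with RMA per the submitters' processing notes; its version and options are not given in the sources used here. The values were taken to log2. Of 45101 probe sets, 64 controls were left out, and of the rest 34945 carried 1 symbol, 932 several and 9160 none in the platform annotation. A gene took its probe set with the highest mean, and was tested when at least 3 arrays exceeded the 30th percentile of all values (log2 4.79). The number of arrays limits the precision.

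Group means models of 5 groups and of 7 subgroups were fitted to all arrays with limma 3.58.1 in R 4.3.3. The moderated two-sided tests were adjusted by Benjamini-Hochberg over 15266 genes, with a threshold of 0.05. Groups followed the titles. The series' design text counts the samples as biological, and the labels do not say whether they were separate embryos.

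Equal title numbers were taken to pair arrays where every same-number correlation of deviations from the group means exceeded 0.1. This held for 25,26 with WT (0.19 to 0.61), 53,54 with Null (0.15 to 0.63) and LSL-WT Cre with LSL-WT Empty (0.72 to 0.80). Null Cre with WT Cre also exceeded 0.1 (0.13 and 0.37), but this comparison, with 2 pairs, was not taken as paired.

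The genes and lists were chosen with earlier results of these data known. Named genes outside the 10 were up to 3 per list with the largest moderated statistic in Null against WT among those past the threshold, those of them that passed in LSL-WT Cre against LSL-WT Empty, and the most similar gene to each of the 10. The method was tested on simulated data. The alternatives changed the filter (none), the choice of probe set (all of them, or their mean per gene), the scaling (median centring or quantile normalization), the covariates (strain, Xist or the title number as a block) and the arrays (weighted, only those compared, or leaving out 1 at a time). A further alternative, without the arrays of number 2, and the test of the title number were added after the data were seen. H-Ras and targeted-gene transcripts were not analysed here.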

Additional observations from a re-analysis of the deposited data

Results flagged for a closer look

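In 30 sets of 4 to 10 arrays (each of the 10 genes in Null, 25,26 and WT), 2 arrays stood apart from the others of their group by Dixon's test, which chance does in about 1 of 20 sets. Both values came from the array 25,26 1. Its Dusp5 level of 11.05 lay below the nearest 25,26 array at 11.63, and its Spred1 level of 11.59 lay below the nearest at 11.94. Without this array Spred1 passed in 25,26 against WT (0.46, adjusted p 0.0388 in limma).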

How the results depend on the processing

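The counts of the 10 genes past the threshold of limma depended on the title number and, near the threshold, on single arrays. In Null against WT the count of 1 was 4 with the number as a replicate block (Dusp5, Spry1, Spred1 and Etv5), where 33.8% of all genes passed, 2 with the strain background or with Xist as a covariate, 0 with the compared arrays alone (Dusp5 adjusted p 0.05002), 0 without the arrays of number 2, and 0 to 2 with each array left out. In QM against WT the count of 1 was 4 with the block (26.4% of all genes), 0 without a filter, with all probe sets, with median centring, with Xist, with the compared arrays alone and without number 2, and 0 to 2 with each array left out. In 25,26 against WT the count of 0 was 4 with the block, 1 with the strain background, 2 with array weights, 1 without number 2 and 0 to 1 with each array left out. In 53,54 against Null the count of 0 was 2 with the block and 2 with the strain background, 1 with Xist, with array weights and with the compared arrays alone, and 0 to 1 with each array left out. Between LSL-WT Cre and LSL-WT Empty the count of 0 was 3 with the block, and between Null Cre and WT Cre it was 3 with the block (Dusp4, Dusp5 and Etv5, beside 28.1% of all genes) and 0 to 1 with each array left out. Apart from the main fit, shares of all genes are given for the block alone. Under the other settings a shift of these counts cannot be told apart from a shift over all genes. The cause of these shifts was not tested. The counts of 53,54 against WT, QM against Null, 25,26 against Null and the difference between the parts stayed at 0 in every alternative run. The F test of the title number called 10 genes in every alternative run but the one without number 2, where it called 8. Of 2010 values of single genes under the alternatives, 1956 kept their side of the threshold, 39 passed it, 15 no longer did, and 0 called values changed sign. Array weights did not converge in the 7-subgroup model and were not run there. Same-numbered arrays of the comparisons not taken as paired also deviated together in most pairs, as in 9 of 10 pairs of Null with WT (median correlation 0.31, against -0.18 for other numbers), where 9 of 11 arrays correlated best with their own number.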
